A study of Mus musculus with 6 samples.

Results

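The *Hoxc* cluster is a run of 9 homeobox genes on the forward strand of mouse chromosome 15, in the order *Hoxc13*, *Hoxc12*, *Hoxc11*, *Hoxc10*, *Hoxc9*, *Hoxc8*, *Hoxc6*, *Hoxc5* and *Hoxc4*. Its open chromatin was examined in the ATAC-seq peak lists of neural stem and progenitor cells (NSPCs), within chr15:102916103-103041852 (mm10), which spans the outermost gene ends with 5 kb on either side. All intervals of 4 deposited lists that fall in this window were taken, 31 of the 213406 distinct intervals in those lists. The stringent (conservative) list of parent NSPCs held 6 of them and that of ΔSRR2–18 NSPCs held 23. The more permissive (optimal) lists added 1 interval each. The cluster was selected on these peak positions after its contrast between the genotypes had been seen, so the counts and values below are a description and no test was made of them.

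HOX proteins are homeodomain transcription factors that give body segments their position along the head-to-tail axis. Within a cluster, gene order follows that axis: the genes at the *Hoxc4* end are used earlier and further forward, and those at the *Hoxc13* end later and further back. In pluripotent cells and in forebrain the clusters are typically held closed by Polycomb repression, whereas in the spinal cord they open in a stepwise manner from the *Hoxc4* end, and combinations of HOX factors then set motor neuron identity. ATAC-seq marks such opening through a transposase that inserts adapters into accessible DNA.

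Both genotypes derive from hybrid ESCs of a 129S1/Cast F1 cross (*M. musculus* and *M. castaneus*). In both, mCherry was inserted behind the *Sox2* coding sequence and a cleavable peptide on the 129S1 allele. Parent NSPCs came from Clone 5B, which carries no deletion. ΔSRR2–18 NSPCs came from Clone 47D, in which Cas9 with paired guides removed the *Sox2* regulatory regions SRR2 to SRR18 from both alleles. There were 3 cultures per genotype, kept in N2B27 medium with EGF and bFGF, and the labels give 30000 cells and 50 to 60 M reads per culture. Each genotype is a single clonal line, so the deletion and the clone cannot be told apart. The authors pooled the cultures of a genotype before depositing a list. No value here has a replicate error, and reads of either allele were counted together. A weak region may be weakly open in all cells or open in few cells, which cannot be told apart in bulk nuclei.

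Over the whole genome, the conservative lists held 82885 parent regions and 107480 ΔSRR2–18 regions. Regions lay within 1 kb of a start of 6 of 6 NSPC marker genes in both lists (*Nes*, *Vim*, *Fabp7*, *Sox2*, *Slc1a3* and *Hes5*) and of 0 of 3 pluripotency genes (*Nanog*, *Zfp42* and *Dppa3*). Each peak carries a fold enrichment over local background and a −log10 p, from which the reads piled up at its summit and the local background reads were solved. The lowest background in a list is its genome-wide mean, 38.8 reads in the parent list and 19.7 in the ΔSRR2–18 list. These backgrounds differ by a ratio of 1.98, whereas the labels give the same range of reads for every culture of both genotypes, and the cause of this difference was not tested. The inferred depth of a list is taken from this ratio and was not counted directly. Where stated, reads and backgrounds are given as multiples of the lowest background of their own list. Reads are otherwise given as solved, and such raw reads are not comparable between the lists. To compare the lists, values that depend on depth were also ranked within each list. The top 10% of a list, for example, holds its strongest regions.

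Every one of the 6 parent regions overlapped a ΔSRR2–18 region. The other 17 ΔSRR2–18 regions had no counterpart in the parent list, and no region of the cluster was found in the parent list alone. Regions found in the ΔSRR2–18 list alone thus made up 73.9% of the 23 regions of the cluster, compared with 45.1% of the 150251 regions in the union of both lists. Regions found in the parent list alone made up 28.9% of that union. Because the cluster was chosen for this contrast, nothing was inferred from the difference in shares. Parent regions covered 5093 bp, or 4.05% of the window, and ΔSRR2–18 regions covered 17844 bp, or 14.2%. The lists differ in length. With the ΔSRR2–18 list shortened to 82885 regions by fold enrichment, it kept 7 regions of the cluster, of which 4 were found in it alone, and 3 parent regions then had no counterpart. With the lists matched by summit reads instead, 20 ΔSRR2–18 regions remained, 14 of them in that list alone.

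**Figure D1:**
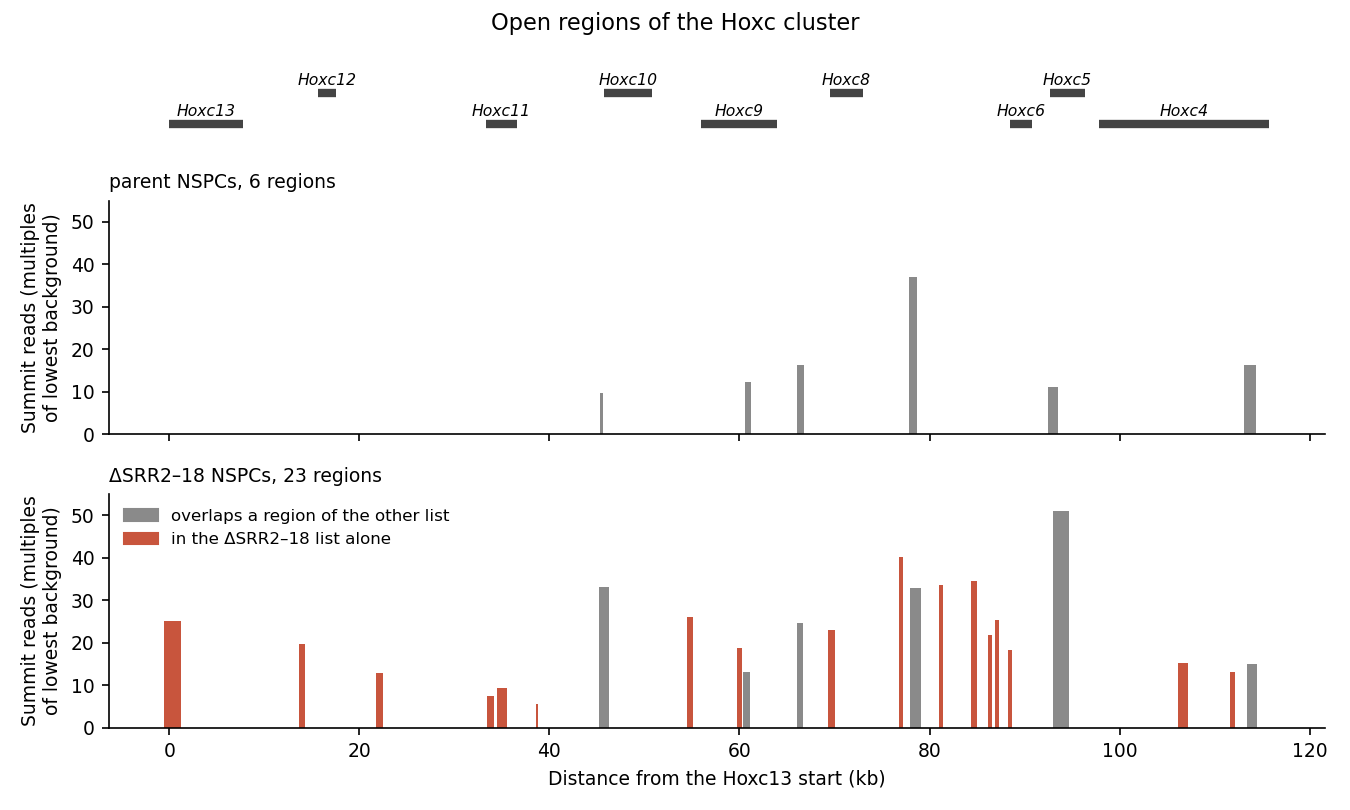
Open regions along the *Hoxc* cluster in the parent list (top) and the ΔSRR2–18 list (bottom), drawn to scale by distance from the *Hoxc13* start in kb, with bar width as region width and bar height as summit reads in multiples of the lowest background. The 6 parent regions start at *Hoxc10*, whereas the 23 ΔSRR2–18 regions run from *Hoxc13* to *Hoxc4*, 17 of them without a parent counterpart; gene bars run from the first start in the basic annotation to the gene end.

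The sequences at the strongest summits of the best-ranked regions are shown to locate their open DNA, both in regions found in the ΔSRR2–18 list alone and in shared regions. Each is 81 bases of mm10 (RefSeq GRCm38.p6), forward strand, 5′ to 3′, with the 9 bases centred on the summit in capitals. The first 3 are the best-ranked regions found in the ΔSRR2–18 list alone, followed by the best-ranked shared region of the parent list and that of the ΔSRR2–18 list.
*Hoxc13* promoter, chr15:102920844-102920924: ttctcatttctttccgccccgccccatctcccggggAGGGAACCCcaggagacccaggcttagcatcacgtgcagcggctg
*Hoxc8*–*Hoxc6* interval, chr15:102998138-102998218: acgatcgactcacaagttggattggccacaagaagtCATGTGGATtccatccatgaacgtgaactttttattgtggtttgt
Upstream of *Hoxc12*, chr15:102935117-102935197: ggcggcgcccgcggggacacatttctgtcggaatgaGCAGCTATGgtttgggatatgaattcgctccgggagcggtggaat
*Hoxc8*–*Hoxc6* interval, shared, parent summit, chr15:102999339-102999419: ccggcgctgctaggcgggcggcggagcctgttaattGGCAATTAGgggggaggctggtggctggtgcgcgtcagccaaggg
*Hoxc5*, shared, ΔSRR2–18 summit, chr15:103014348-103014428: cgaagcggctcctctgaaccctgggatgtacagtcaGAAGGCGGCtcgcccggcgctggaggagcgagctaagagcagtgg

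The posterior genes *Hoxc13*, *Hoxc12* and *Hoxc11*, which pattern the tail end of the trunk and, for *Hoxc13*, hair and nail, had no region in the parent conservative list and 6 in the ΔSRR2–18 list. The *Hoxc13* (ENSMUSG00000001655.6) region, 102920593 to 102922290, was the best-ranked region found in the ΔSRR2–18 list alone, in the top 38.0% by −log10 p (331.8). It covered the *Hoxc13* start with 6 summits, the strongest 219 bp upstream of the start, with 493 reads (25.1 times the lowest background) and a fold enrichment of 11.3. Its sequence is the first shown above.

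*Hoxc12* (ENSMUSG00000050328.2) had regions on both sides but none at its start. The upstream region, 102934781 to 102935371, had its summit 1600 bp before the start, with 389 reads and a fold enrichment of 11.8 (top 42.6%). The downstream region, 102942848 to 102943637, had 255 reads and a fold enrichment of 10.3. It ended 425 bp from the 3′ end of *Hotair*, the antisense long noncoding RNA between *Hoxc12* and *Hoxc11*, and no region of either list lay in *Hotair* itself.

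*Hoxc11* (ENSMUSG00000001656.3) had the 3 ΔSRR2–18 regions with the fewest reads. The region in a coding exon, 102954497 to 102955266, had 148 reads and the one in its intron, 102955640 to 102956649, had 185. A region 5369 bp past the start, 102959698 to 102959889, had 110 reads, the fewest of the 23. Their IDR scores, which run up to 1000 and measure how alike a peak ranked across cultures, were 712, 596 and 548, against a lowest value of 540 in the list. The intron region was also the only one of the 17 to meet a parent interval in the permissive list, 102955839 to 102956587, which had a fold enrichment of 3.89 and fell in the top 96.6% by −log10 p. The region with 110 reads was absent from the permissive ΔSRR2–18 list.

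*Hoxc10* (ENSMUSG00000022484.7), a lumbar-level gene, had 1 region in each list, with the strongest summit just upstream of its start at 102966796. The parent region ended before the start. The ΔSRR2–18 region covered the start, with further summits past it at 102966914 and 102967162. The parent region, 102966384 to 102966773, held 378 reads and the ΔSRR2–18 region, 102966302 to 102967374, held 650, at the lower inferred depth. In multiples of the lowest background these are 9.73 and 33.1. This was the only shared region of the cluster that ranked higher in the ΔSRR2–18 list by all 3 measures, from the top 64.2% to the top 29.3% by −log10 p, from 51.6% to 40.7% by fold enrichment and from 71.1% to 27.5% by summit reads. The ΔSRR2–18 region was wider and contained 100% of the parent region.

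*Hoxc9* (ENSMUSG00000036139.6), which acts in thoracic motor neurons, had a shared region in a coding exon and 2 regions in the ΔSRR2–18 list alone. The shared region had a fold enrichment of 10.3 in the parent list (102981648 to 102982367) and 2.99 in the ΔSRR2–18 list (102981446 to 102982257), and its strongest summit lay 255 bp nearer to the *Hoxc9* start in the latter. Its summit reads were similar, at 12.3 and 13.1 times the lowest background. Of the other 2, the region at 102975620 to 102976206 had its summit 1008 bp upstream of the start with 514 reads, and lay 2186 bp past *Mir196a-2*, the microRNA gene between *Hoxc10* and *Hoxc9*. The region at 102980860 to 102981355 lay in the intron with 369 reads. The permissive ΔSRR2–18 list added a region 330 bp upstream of the *Hoxc9* start (102976567 to 102976936, fold enrichment of 2.63).

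*Hoxc8* (ENSMUSG00000001657.7), a brachial to thoracic gene, had a region at its start in the ΔSRR2–18 list alone. This region, 102990389 to 102991164, had its strongest summit 43 bp upstream of the start, with 452 reads, and ranked in the top 40.1% by reads but the top 86.5% by fold enrichment. A shared region further upstream, with its parent summit 2985 bp before the start, held 632 parent reads (102987105 to 102987940) and 483 ΔSRR2–18 reads (102987122 to 102987762), or 16.3 and 24.6 times the lowest background. Its summits lay 15 bp apart.

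The strongest parent region of the cluster, 102998990 to 102999800, lay between *Hoxc8* and the basic start of *Hoxc6*. It held 1435 reads, with a fold enrichment of 20.6 (top 8.29%) and a −log10 p of 1304.7. The overlapping ΔSRR2–18 region, 102998997 to 103000249, had a fold enrichment of 4.29 (top 93.9%) with 647 reads. In multiples of the lowest background the summits were 36.9 and 32.9 times the lowest background, so they differed far less in reads than in fold enrichment, and 5 summits were called in the ΔSRR2–18 region against 1 in the parent region. A separate region just upstream (102997930 to 102998328) was found in the ΔSRR2–18 list alone with 792 reads, the most of the 17. Its summit lay 79 bp from a *Hoxc6* start that is given in the comprehensive annotation but not in the basic one. The summit of the strongest parent region lay 1122 bp past that same start, within *Hoxc6* by the comprehensive annotation.

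*Hoxc6* (ENSMUSG00000001661.5), a gene of forelimb-level segments, had no parent region nearest to its basic start, and 5 ΔSRR2–18 regions. The regions at 103002126 to 103002543, 103005448 to 103006107, 103007268 to 103007661 and 103008008 to 103008425 had summits 7205, 3964, 2068 and 1330 bp upstream of the basic start, with 663, 681, 429 and 497 reads. The comprehensive annotation also gives *Hoxc6* starts at 102998257 and 103000529, and by it these summits lie within *Hoxc6*. The remaining region, 103009394 to 103009826, lay at the basic start in a coding exon, with 361 reads and the lowest fold enrichment of the 23 (2.46, top 99.6%). All 5 had summit reads in the upper 50% of the list and fold enrichments outside its upper 50%.

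*Hoxc5* (ENSMUSG00000022485.3) had a shared region in a coding exon, which was the best-ranked region of the cluster in ΔSRR2–18 NSPCs. It held 429 reads in the parent list (103013593 to 103014644) and 1003 in the ΔSRR2–18 list (103014085 to 103015780), or 11.0 and 51.0 times the lowest background, the largest ratio between genotypes of the 6 pairs (4.62). Its rank by −log10 p was the top 62.0% in the parent list and the top 22.8% in the other. By fold enrichment its ranks were close (54.3% and 58.8%). The ΔSRR2–18 region reached past the parent region and contained *Mir615*, a microRNA gene in the *Hoxc5* intron, which lay 266 bp beyond the end of the parent region.

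*Hoxc4* (ENSMUSG00000075394.4), the most anterior gene, has starts at 103018934 and 103034395 in the basic annotation. The downstream start had a shared region, 103034179 to 103035462 in the parent list and 103034457 to 103035537 in the ΔSRR2–18 list, with 630 and 296 reads. These are 16.2 and 15.1 times the lowest background. Regions in an intron, 103027197 to 103028318 with 299 reads and 103032754 to 103033287 with 260 reads, were found in the ΔSRR2–18 list alone. No region of either list lay within 1 kb of the upstream start.

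Counted by promoter, a strongest summit lay within 1 kb of a basic start of *Hoxc10*, *Hoxc5* and *Hoxc4* in the parent list (3 regions). In the ΔSRR2–18 list, *Hoxc13*, *Hoxc11*, *Hoxc8* and *Hoxc6* also had one, giving 7 regions, with only *Hoxc12* and *Hoxc9* lacking one by these starts. The *Hoxc9* region at 102975620 to 102976206 had its summit 1008 bp from the basic start. The same summit lay 415 bp from a *Hoxc9* start that is given in the comprehensive annotation but not in the basic one. Of the 17 regions in the ΔSRR2–18 list alone, 11 had their strongest summit outside all basic transcripts, 4 in introns and 2 in coding exons. Some of the 11 still lie within longer gene records, which run from 102967443 to 103017429 for *Hoxc5* and from 102998257 to 103011881 for *Hoxc6*. Of the same 17 regions, 13 had the maximal IDR score. The shares of these classes and of promoter regions over the whole lists are not given here, so nothing was inferred from these counts.

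The local background is taken by the peak caller from reads around a summit. It was 1.00 to 1.77 times the lowest value in the 6 parent regions and 1.22 to 8.43 times in the 23 ΔSRR2–18 regions. Parent values exceeded 3 times the lowest in 0 of 6 regions, against 31.9% of all parent regions. ΔSRR2–18 values did so in 13 of 23 regions, against 25.8% of all ΔSRR2–18 regions. The ΔSRR2–18 background varied along the cluster. It was 1.22 to 2.16 times the lowest over the 6 regions from *Hoxc13* to *Hoxc11*, 2.66 at *Hoxc10*, and 3.97 to 8.43 over the 13 regions from *Hoxc9* to *Hoxc5*, with its maximum upstream of *Hoxc6*. At *Hoxc4* it was 2.13 to 2.37 over 3 regions. The parent list had no region from *Hoxc13* to *Hoxc11*, so the lists could not be compared there. Neighbouring open regions contribute reads to this background, and their part in its height was not tested.

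**Figure D2:**
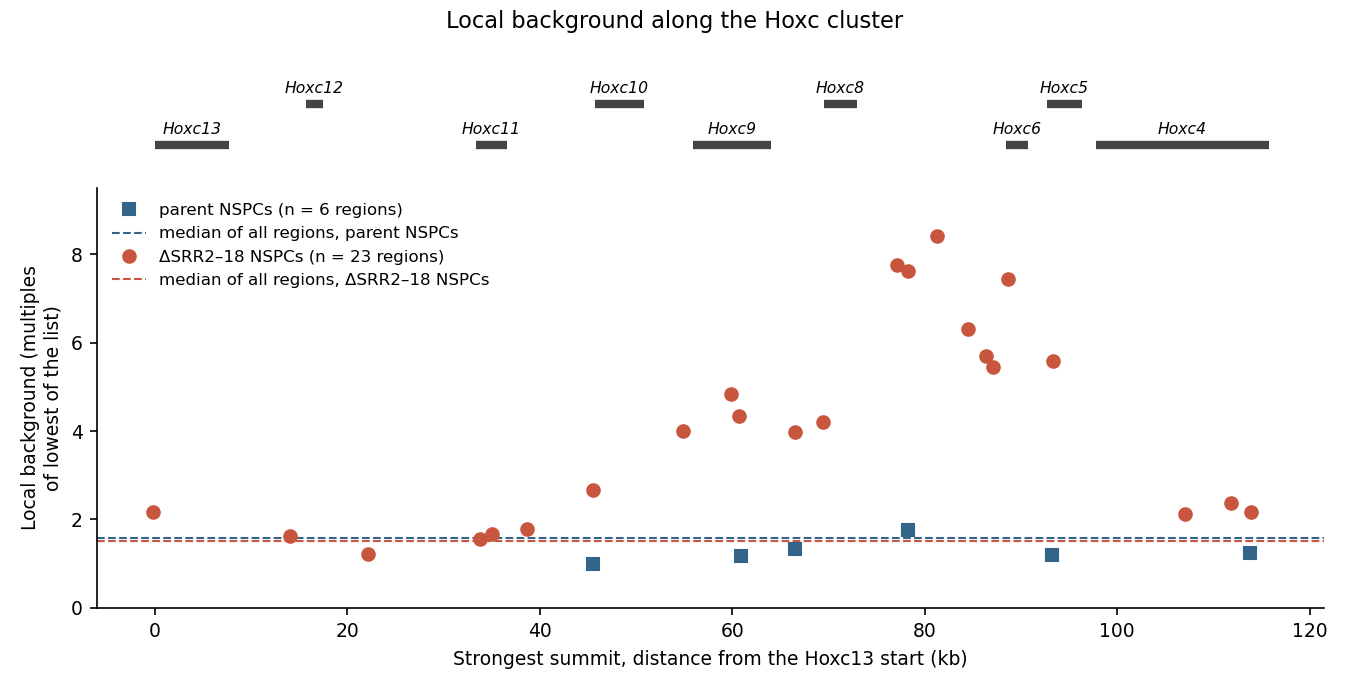
Local background at the strongest summit of each region, in multiples of the lowest background of its list, against distance from the *Hoxc13* start in kb. Squares are the 6 parent regions and circles the 23 ΔSRR2–18 regions, with dashed lines at the median of all regions of each list (1.57 and 1.51); the highest circle, at 8.43, lies between *Hoxc8* and *Hoxc6*, and the highest square is at 1.77.

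At the 6 shared regions the background was higher in ΔSRR2–18 NSPCs in 6 of 6, compared with 31.7% of all 40114 overlapping pairs. The ratio of ΔSRR2–18 to parent background had a median of 3.35 (1.75 to 4.66), against 0.903 over all pairs. Of the 6 pairs, 4 ranked higher in the ΔSRR2–18 list by summit reads (47.1% of all pairs did). By −log10 p 2 pairs did so (45.4%), and by fold enrichment 1 pair (42.8%). The median ratio of summit reads was 1.29, against 0.847 over all pairs. With parent −log10 p scaled to the inferred ΔSRR2–18 depth, the parent and ΔSRR2–18 values were 117 and 454 at *Hoxc10* and 128 and 578 at *Hoxc5*. In the other 4 pairs the scaled parent value was the larger one, 154 to 662 against 50.7 to 209. A fold enrichment divides summit reads by this background, so the order of the pairs depended on which value was ranked. In the *Hoxc8*–*Hoxc6* pair, for example, the top 8.29% by fold enrichment in the parent list faced the top 93.9% in the ΔSRR2–18 list, whereas by summit reads the ranks were 28.5% and 27.6%. Over all 23 ΔSRR2–18 regions, the number in the upper 50% of their list was 15 when ranked by reads, 7 when ranked by −log10 p and 3 when ranked by fold enrichment. The median fold enrichment was 5.46 in the 23 regions and 10.4 in the whole ΔSRR2–18 list, while the median summit reads were 21.8 and 18.0 times the lowest background. In the 6 parent regions the median fold enrichment was 11.2, against 9.81 in the whole parent list.

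**Figure D3:**
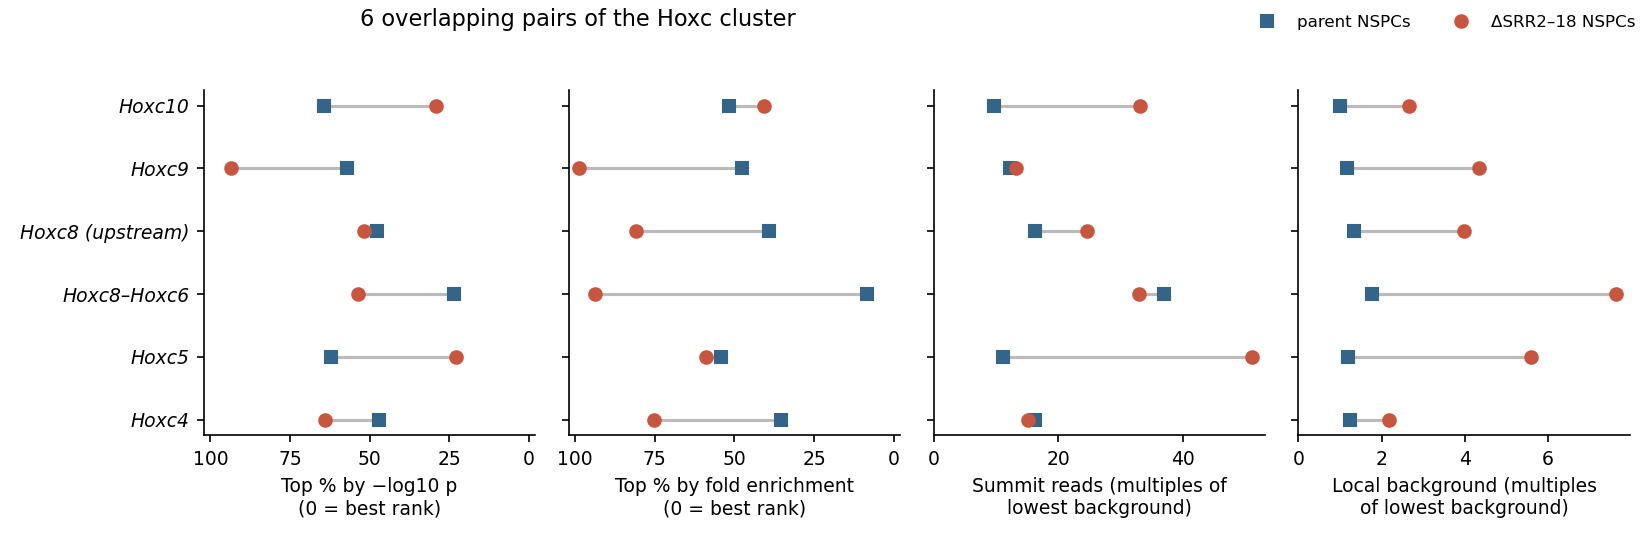
The 6 overlapping pairs of the *Hoxc* cluster, from *Hoxc13* side to *Hoxc4* side, with squares for parent NSPCs and circles for ΔSRR2–18 NSPCs. Panels give the rank within the list (percent, best at the right) by −log10 p, then by fold enrichment, and summit reads and local background (both in multiples of the lowest background of the list); background is higher in the circles in 6 of 6 pairs, and the ranks move in both directions.

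The shared DNA was compared as well. Summits of a pair lay 15 to 255 bp apart, and each fell within the region of the other list in 6 of 6 pairs. The parent summits at *Hoxc10* and upstream of *Hoxc8* shared a run of 13 bases, shown in capitals, which was noticed after the sequences had been read. The run holds the last 7 letters of the CTCF consensus that was searched, without its first letters.
*Hoxc10*, parent summit, chr15:102966549-102966629: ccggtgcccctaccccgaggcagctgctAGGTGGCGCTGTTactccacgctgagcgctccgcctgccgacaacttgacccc
Upstream of *Hoxc8*, parent summit, chr15:102987582-102987662: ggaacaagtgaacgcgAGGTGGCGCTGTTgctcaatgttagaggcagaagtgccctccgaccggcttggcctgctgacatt
Within 100 bp of a strongest summit and on either strand, this run was present at 45 of 82885 parent regions (0.0543%) and 36 of 107480 ΔSRR2–18 regions (0.0335%), 2 of them in the cluster in each list. The 2 in the parent list are the regions from which the run was taken, and the 2 in the ΔSRR2–18 list overlap them. Their presence was thus fixed by how the run was chosen, and nothing was inferred from it. CTCF binds at insulators and domain borders, and no binding was measured here.

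Motifs were counted as exact matches on both strands within 100 bp of the strongest summit. A HOX or CDX consensus (TGATNNAT for HOX with PBX, TTTACGA or TTTATGA for posterior HOX, TTTATNG for CDX, which overlap in part) occurred at 5 of 23 ΔSRR2–18 regions, close to the 23.5% of the whole list. All 5 were among the 17 of these 23 regions that were found in the ΔSRR2–18 list alone. The share over all regions of that class was not computed, so nothing was inferred from this. The parent list had 0 of 6, against 12.1% of its regions. Within the printed stretch of the *Hoxc8*–*Hoxc6* interval, the CDX match is the TTTATTG that starts 26 bases after the summit. The AP-1 motif (TGACTCA or TGAGTCA), present in 31.0% of all ΔSRR2–18 regions and 5.13% of parent regions, occurred at 0 of 23 and 0 of 6. The SOX motif (ACAAAGG or ACAATGG) occurred at 1 region in each list, against 11.6% of all parent and 6.55% of all ΔSRR2–18 regions. The full CTCF consensus occurred at none, against 4.48% and 2.87%. The DR5 retinoic acid receptor element also occurred at none, against 0.0483% and 0.115%. With 6 and 23 regions, nothing was inferred from these counts. A match does not show binding, and absence says only that these letters were not within this window. GC content around the summits had a median of 58.7% in the 23 ΔSRR2–18 regions (48.3% in the list) and 68.2% in the 6 parent regions (52.2%).

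The other *Hox* clusters, taken with the same margins, are set beside *Hoxc* as values. *Hoxa* held 23 parent and 22 ΔSRR2–18 regions, with 8 in the parent list alone, 7 in the ΔSRR2–18 list alone and 15 in both. *Hoxb* held 22 and 32 regions, with 5, 12 and 17. *Hoxd* held 14 and 15 regions, with 4, 5 and 10. *Hoxc* was the only one with 0 regions in the parent list alone and had the smallest covered share in parent NSPCs (4.05%, against 8.34 to 17.4%), whereas its share in ΔSRR2–18 NSPCs (14.2%) lay within the range of the others (11.3 to 14.3%). The median background in parent NSPCs was 1.22 times the lowest in *Hoxc*, 5.50 in *Hoxa*, 2.72 in *Hoxb* and 1.85 in *Hoxd*. In ΔSRR2–18 NSPCs it was 4.00, 4.08, 4.19 and 1.90, respectively.

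**Figure D4:**
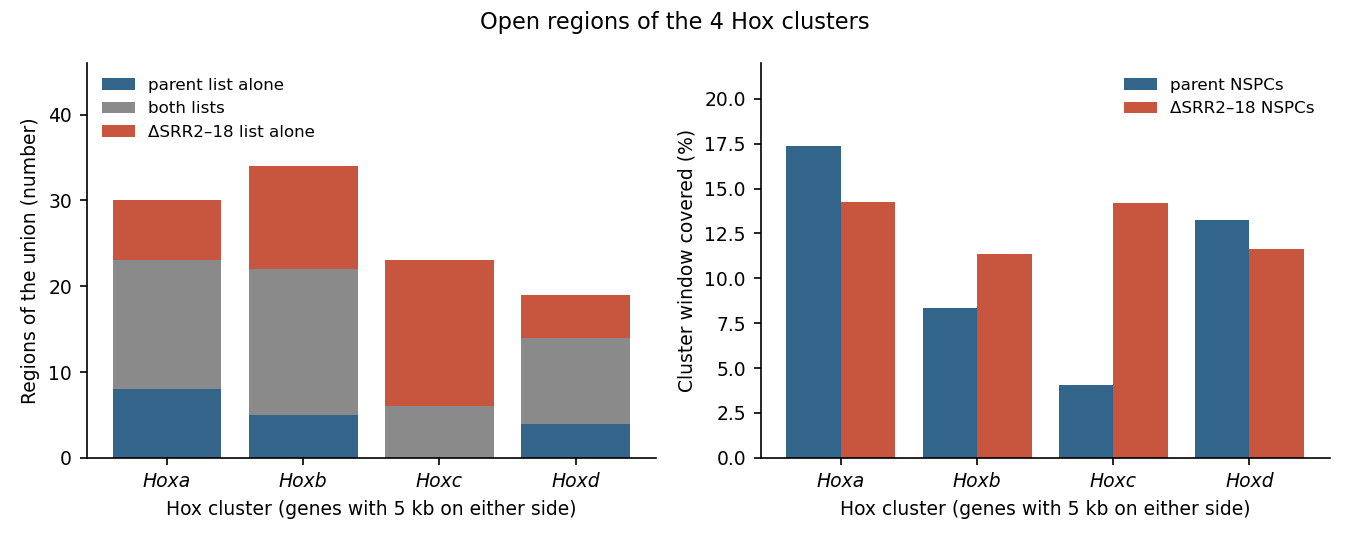
Left, number of regions in each *Hox* cluster found in the parent list alone, in both lists or in the ΔSRR2–18 list alone; right, percent of each cluster window covered by regions of either genotype. *Hoxc* has 0 regions in the parent list alone and 17 in the ΔSRR2–18 list alone, and is covered to 4.05% in parent and 14.2% in ΔSRR2–18 NSPCs.

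The borders of the window did not divide neighbouring regions. The nearest parent regions lay 126859 bp before and 35859 bp after it, and the nearest ΔSRR2–18 regions 34563 bp before and 18251 bp after it. At the threshold of the lists themselves, the member with the lowest IDR score was the *Hoxc11* region at 548. The intervals present in a permissive list alone were the parent interval in the *Hoxc11* intron, with a score of 786, and the ΔSRR2–18 interval upstream of *Hoxc9*, with a score of 719.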

How the data were processed

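ATAC-seq of 3 parent and 3 ΔSRR2–18 cultures was processed by the authors with the ENCODE pipeline, MACS2 and IDR, giving 2 pooled peak lists per genotype in mm10. The columns used, as deposited, are the IDR score, the fold enrichment (a ratio of summit to background reads), the −log10 p and the offset of each summit. The −log10 q was not used. The other pipeline settings are not given in the sources used here. Reads of the *M. castaneus* allele can map less often to mm10.

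Overlapping intervals were merged in Python (pandas and numpy). A region took its values from its strongest summit by fold enrichment, and its reads from the summit with the most reads. Reads and background were solved from the MACS2 Poisson model, and counted as whole within 0.05 of an integer. A region was shared with at least 1 bp of overlap. Starts came from the GENCODE M21 basic annotation. Every *Hoxc* gene is named, with the noncoding genes that regions lie in or near. Read recovery and overlap classes were tested on simulated data. The members and lists were chosen with earlier results of these data known.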

Additional observations from a re-analysis of the deposited data

How the results depend on the processing

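Of 80 alternative values of the summary results, 65 were within 1.5 times the reported value and 15 moved further. The 65 include settings that removed no region of the cluster and left its counts as they were. These were a window without the 5 kb margin, unmerged intervals and a scaled −log10 p of at least 20. The tally is thus not a measure of robustness. Lists of equal length by fold enrichment left 7 ΔSRR2–18 regions covering 8051 bp, 4 in the ΔSRR2–18 list alone, 3 in the parent list alone and 3 in both. Regions in the parent list alone numbered 1 at an IDR of 0.01, 1 in lists of equal length by −log10 p, 1 with parent −log10 p scaled to the inferred ΔSRR2–18 depth and held to at least 100, and 2 with a reciprocal overlap of 50%. Pairs ranking higher in the ΔSRR2–18 list numbered 1 by fold enrichment, 4 by summit reads and 0 of those with a reciprocal overlap of 50%. HOX or CDX matches anywhere in a region were found at 10 ΔSRR2–18 and 4 parent regions, and 13 ΔSRR2–18 regions lay within 2.5 kb of a start. The shares over the whole lists at these settings were not computed, so nothing was inferred from these counts. Of 54 counts per gene, 10 moved, between *Hoxc8*, *Hoxc6*, *Hoxc5* and *Hoxc4*, whose starts differ between annotations. Equal lengths by summit reads, scaled −log10 p of at least 50 or 100, starts of the comprehensive annotation and the shared run were chosen after seeing the data.

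No paired analysis was possible because the authors pooled the cultures of a genotype into 1 list. Leaving out a culture was not run for the same reason. Summit reads are pileup heights and not distinct fragments. The lowest backgrounds imply that the pooled parent libraries were deeper by a factor of 1.98, which the reads per culture in the labels do not show, and the cause was not tested.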
